A study of Mus musculus with 30 samples.

Results

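The genes described here are carriers of amino acids and related solutes. They were chosen by name, as the protein-coding genes of the solute carrier families Slc1, Slc3, Slc6, Slc7, Slc36, Slc38 and Slc43. This gave 59 of the 22026 protein-coding genes listed for both tissues: 7 of Slc1, 2 of Slc3, 17 of Slc6, 15 of Slc7, 4 of Slc36, 11 of Slc38 and 3 of Slc43.

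Amino acids filtered by the glomerulus are taken back by the proximal tubule, where carriers of the brush border bring them into the cell and carriers of the basolateral membrane pass them on to the blood. Several of these carriers are heteromers in which a heavy subunit, Slc3a1 (rBAT) at the brush border or Slc3a2 (4F2hc) at the basolateral side, brings a light subunit of the Slc7 family to the membrane. Other members move osmolytes such as taurine and betaine, transmitters such as GABA and noradrenaline, or amino acids across the lysosomal membrane.

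mRNA was sequenced from kidneys of 16 and aortae of 14 male mice, 1 library per mouse and tissue. Per the study's methods, the line with floxed Egfr was C57BL/6 and the Cre line C57BL/6N. A high-fat diet (HFD) was compared with a standard-fat diet (SFD) in mice with and without the EGF receptor in vascular smooth muscle. Every mouse received tamoxifen and carried an inducible Cre that is driven by the Smmhc promoter of smooth muscle; KO mice had both Egfr alleles floxed, while WT mice had no loxP sites. Feeding began at 6 weeks of age, after tamoxifen, and lasted 18 weeks. WT-SFD, WT-HFD, KO-SFD and KO-HFD had 4 kidneys each, and the aortae were 3, 4, 3 and 4, with 3 mice giving both tissues. The Cre is directed at smooth muscle, so the tubule of a KO kidney was not a target, though Egfr was not measured by cell type. The tissues were sequenced at different sites, so they were never tested against each other.

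Kidney libraries held 16354880 to 28331314 counts (median 19544128) and aortic libraries 6403699 to 13052870 (median 8998366), and carriers took 0.438% to 0.561% of the kidney counts and 0.0928% to 0.141% of the aortic counts. Levels are given as FPM, fragments per 1000000 counted and scaled by TMM factors. A gene was called changed at an adjusted p under 0.05 over all genes tested in that tissue by edgeR's quasi-likelihood test. P values measure the spread between the mice of a group, and in whole tissue fewer cells of a type and less RNA per cell cannot be told apart.

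Egfr, the targeted gene, was at 58.4, 39.1, 51.0 and 53.0 FPM in WT-SFD kidneys, 47.5, 36.9, 56.6 and 42.7 in WT-HFD, 52.7, 46.7, 60.8 and 54.0 in KO-SFD and 42.9, 45.5, 40.5 and 43.5 in KO-HFD. In the aorta it was at 46.7, 39.5 and 54.3 FPM in WT-SFD, 65.1, 56.98, 51.2 and 57.03 in WT-HFD, 26.8, 35.5 and 28.01 in KO-SFD and 27.5, 40.6, 39.7 and 33.4 in KO-HFD. On each diet all KO aortae lay below all WT aortae, by a log2 difference of -0.64 ± 0.17 (SE, adjusted p = 0.547) on SFD and -0.70 ± 0.14 (adjusted p = 0.129) on HFD, neither of which passed the test. The kidney values overlapped between the genotypes.

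Tissue markers matched the labels. The 9 proximal tubule markers summed to 16840 to 32270 FPM in every kidney and to 1.71 to 10.2 FPM in the aortae. Smooth muscle markers, led by Acta2, summed to 9504 to 17240 FPM in the aortae, although Tagln and Cnn1 of that list are listed at 0. The aortae were not alike in fat: 7 adipocyte markers, led by Fabp4, summed to 2666 and 2005 FPM in WT-SFD-1309 and WT-SFD-1310 and to 1649 and 581 FPM in KO-SFD-1319 and KO-SFD-1452, but to 35.98 to 138.9 FPM in the other 10.

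In the kidney 38 carriers had enough counts to be tested, 12 had counts below the filter (mean level at most 0.374 FPM) and 9 are listed at 0 in every library. Those 9 are at 0 in the aorta too: Slc38a5, Slc6a14, Slc6a8 and Slc7a3 on chromosome X, Slc36a4 and Slc38a3 on chromosome 9, and Slc7a5, Slc7a6 and Slc38a8 on chromosome 8. No row on chromosomes 9 and X, nor on part of chromosome 8, holds a count, so these zeros do not show absent expression. Slc7a5 and Slc7a6, light subunits that pair with Slc3a2, and Slc6a8, the creatine carrier, are therefore not analysed here. In the aorta 32 carriers were tested, 16 fell below the filter and 11 are listed at 0, the additional ones being Slc6a18 and Slc6a3. A group of 28 carriers was tested in both tissues, 10 in kidney only and 4 in aorta only.

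Levels of different genes were compared per length of exon, as FPKM, which is FPM per kilobase. In the kidney the mean over the 16 mice was highest for Slc7a13 (AGT1, a light subunit for aspartate, glutamate and cystine) with 475 FPKM. This was 33.5% of the summed level of all members with counts. Next came Slc6a18, a brush-border carrier of glycine and other neutral amino acids, with 207 FPKM and Slc3a1 with 180 FPKM. Slc6a13 (GAT2) at 71.3 FPKM and the heavy subunit Slc3a2 at 70.5 FPKM were nearly equal. Slc7a9 (b0,+AT, the partner of Slc3a1) at 50.2, Slc6a19 (B0AT1, the main neutral carrier of the brush border) at 49.0, the taurine carrier Slc6a6 at 48.2 and Slc38a10 at 46.7 FPKM lay close together, and Slc7a7 (y+LAT1) followed at 41.8 FPKM. These 10 held 87.6% of the summed level of the members with counts, of which 22 stayed below 1 FPKM.

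The aorta used other members. Slc1a5 (ASCT2, an exchanger of glutamine and other neutral amino acids) led with 28.8 FPKM, before Slc38a2 (SNAT2, sodium-coupled uptake of neutral amino acids) with 26.4 FPKM, Slc6a6 with 21.0 FPKM and the purine carrier Slc43a3 with 15.1 FPKM. Slc3a2 was at 12.0, Slc38a10 at 10.2, Slc36a2 at 9.85, Slc7a2 at 6.82, Slc6a9 at 4.46 and Slc1a4 at 4.39 FPKM. Slc6a6, Slc3a2 and Slc38a10 were thus among the 10 highest in both tissues. The brush-border genes that led in the kidney were near or at the floor in the aorta, with 0.0294 FPKM for Slc7a13, 0.275 for Slc3a1 and 0.00385 for Slc7a9. With the longest transcript as length, all 10 of the kidney genes and 8 of the aortic genes kept their place among the 10 highest. The aortic means take in the fat-rich SFD aortae, where Slc1a5 and Slc36a2 had their highest values (given below). The order without those aortae was not taken.

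**Figure D1:**
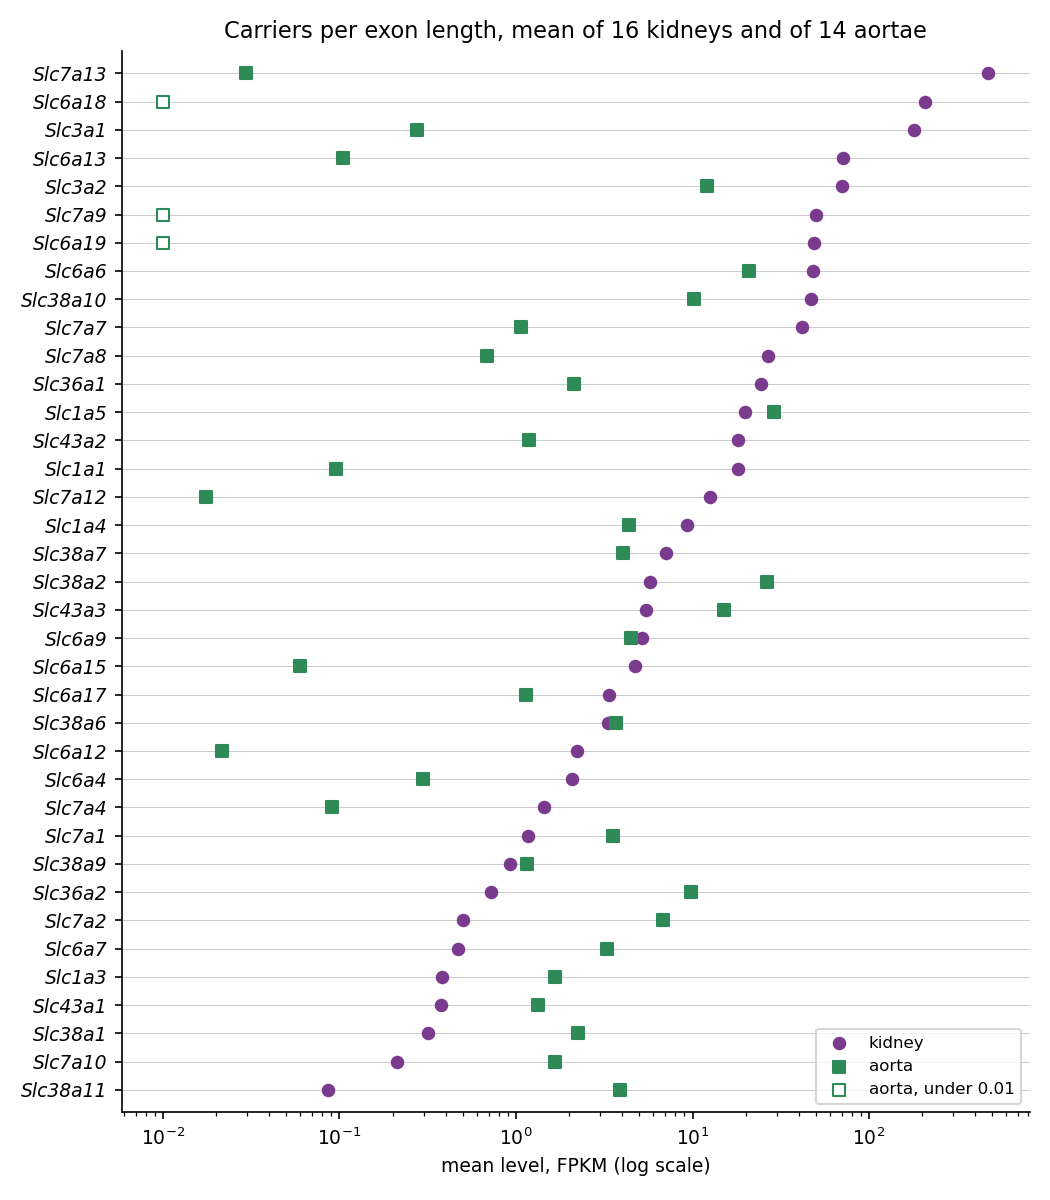
Mean level of each carrier at 1 FPKM or more in either tissue, in FPKM on a log axis, with circles for the 16 kidneys and squares for the 14 aortae (open squares at the left edge lie under 0.01 FPKM). Slc7a13, Slc6a18 and Slc3a1 lead in the kidney, Slc1a5 and Slc38a2 in the aorta, where the mean takes in the fat-rich SFD aortae.

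HFD moved a minority of the kidney carriers. In WT mice 3 of the 38 tested rose and none fell, where 137 of all 15034 genes (0.911%) were called. In KO mice 6 rose and 2 fell, where 346 genes (2.3%) were called. With both genotypes averaged 7 rose and 2 fell, where 674 genes (4.48%) were called. The 9 members called in any of these were Slc7a8, Slc7a7, Slc3a2, Slc7a9, Slc38a4, Slc6a7 and Slc7a2, all higher, and Slc1a4 and Slc1a5, both lower; the calls in WT (Slc38a4, Slc6a7, Slc7a8) were also made in KO. The median log2 fold change over the 38 members was -0.07 in WT and -0.16 in KO, against -0.004 in each genotype over all genes tested.

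Without regard to the test, the HFD and SFD mice of both genotypes stood apart in the same direction, with no overlap, for 277 genes (1.84%), among them 7 of the 38 members: Slc7a8, Slc7a7, Slc7a9, Slc38a4, Slc6a7, Slc7a2 and Slc1a5. The WT and KO contrasts use different mice, whereas the averaged contrast uses all 16.

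**Figure D2:**
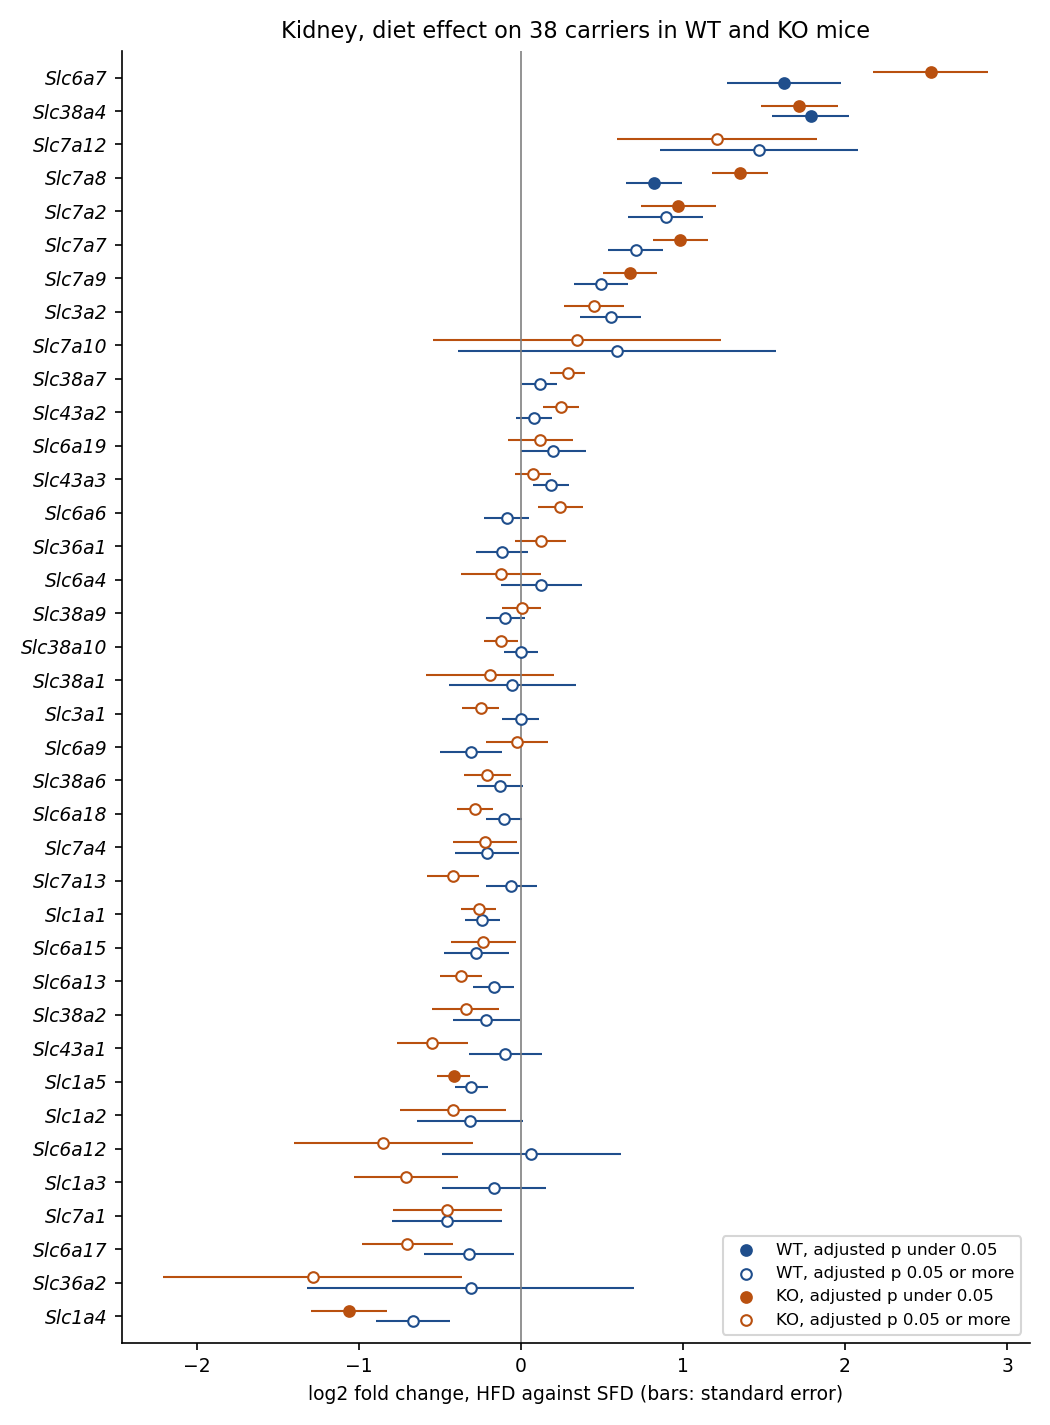
Log2 fold change of HFD against SFD for the 38 carriers tested in the kidney, in WT (blue) and KO (orange), with bars of 1 SE and filled points for an adjusted p under 0.05. Slc38a4 and Slc6a7 lie farthest to the right in both genotypes, and Slc1a4 is called lower in KO.

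Of the light subunits that join Slc3a2, 3 could be tested: Slc7a8 rose in both genotypes, Slc7a7 in KO, and Slc7a10 was not called (log2 0.59 ± 0.98 SE in WT and 0.35 ± 0.89 in KO). Slc7a8 (LAT2, which carries neutral amino acids out of the tubule cell, chr14:54722209-54781946) was at 118, 100, 99.3 and 88.5 FPM in WT-SFD kidneys and at 212, 130, 198 and 176 FPM in WT-HFD. In KO-SFD it was at 81.0, 56.6, 71.3 and 81.1 FPM and in KO-HFD at 134, 174, 222 and 210 FPM. Every HFD kidney exceeded every SFD kidney of either genotype. The rise was 1.77 times in WT (log2 0.82 ± 0.17 SE, adjusted p = 0.029) and 2.55 times in KO (log2 1.35 ± 0.18, adjusted p = 0.00046).

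Slc7a7 (y+LAT1, which exports cationic amino acids to the blood, chr14:54369442-54417780) had 115, 135, 77.2 and 88.9 FPM in WT-SFD and 170, 163, 200 and 146 FPM in WT-HFD. KO-SFD kidneys had 85.5, 97.6, 84.8 and 110 FPM and KO-HFD kidneys 151, 168, 229 and 199 FPM. Again all HFD kidneys lay above all SFD kidneys. The rise of 1.98 times in KO (log2 0.98 ± 0.17, adjusted p = 0.0038) was called, and the 1.63 times in WT (log2 0.71 ± 0.17, adjusted p = 0.066) was not; averaged, it was 1.8 times (adjusted p = 0.00034). Slc7a7 shares 232 bases of exon with Oxa1l on the opposite strand, and the strand setting of the counting is not given in the sources used here; Oxa1l itself had log2 fold changes of -0.10 in WT and -0.06 in KO.

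Slc7a7 and Slc7a8 lie 304428 bases apart on the minus strand of chromosome 14 (GRCm38). Of the 23 genes between them 12 were tested in the kidney and 0 were called in either genotype, with log2 fold changes of -0.41 to 0.31.

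The heavy subunit itself, Slc3a2, was at 190, 246, 162 and 161 FPM in WT-SFD and at 282, 278, 283 and 269 FPM in WT-HFD. In KO-SFD it was at 162, 290, 258 and 180 FPM and in KO-HFD at 238, 273, 375 and 331 FPM. The WT diets did not overlap, but KO-SFD-1318 and KO-SFD-1319 reached into the KO-HFD range. Neither genotype passed on its own (log2 0.55 ± 0.19, adjusted p = 0.31 in WT and 0.45 ± 0.19, adjusted p = 0.25 in KO); the averaged rise of 1.42 times did (adjusted p = 0.04).

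**Figure D3:**
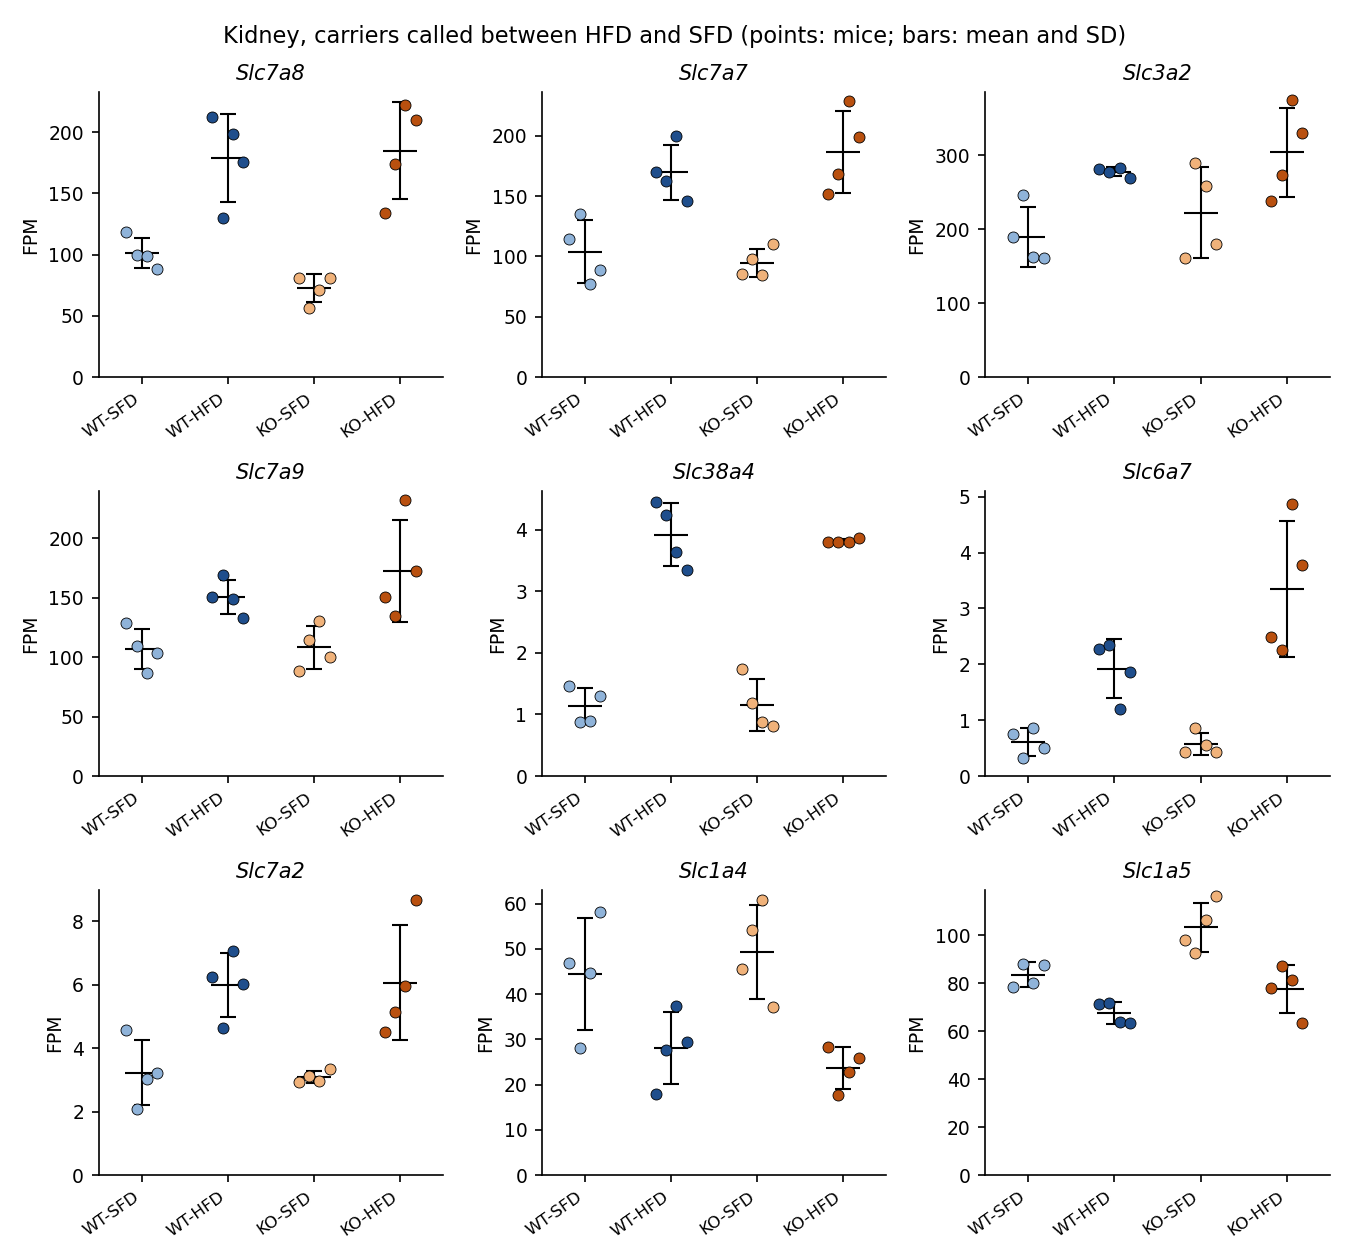
FPM of 9 carriers in each of the 16 kidneys (points), with the mean and SD of each group of 4. HFD lies above SFD for Slc7a8, Slc7a7, Slc7a9, Slc38a4, Slc6a7 and Slc7a2, and below it for Slc1a5, in both genotypes without overlap.

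At the brush border the subunits of the cystine and cationic amino acid exchanger did not move alike. The light subunit Slc7a9 was at 128, 109, 86.6 and 103 FPM in WT-SFD and 151, 169, 149 and 133 FPM in WT-HFD, and at 88.1, 114, 131 and 100 FPM in KO-SFD and 150, 134, 232 and 172 FPM in KO-HFD. The diets did not overlap in either genotype, though the gap in KO was only that between 131 and 134 FPM. Its rise of 1.59 times was called in KO (log2 0.67 ± 0.17, adjusted p = 0.041), while that of 1.41 times in WT was not (adjusted p = 0.30).

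The heavy subunit Slc3a1 had 498, 337, 368 and 471 FPM in WT-SFD, 400, 434, 443 and 395 FPM in WT-HFD, 416, 458, 460 and 408 FPM in KO-SFD and 360, 372, 358 and 374 FPM in KO-HFD. WT values overlapped and all KO-HFD kidneys lay below all KO-SFD kidneys. It was not called, with log2 values of 0.00 ± 0.11 in WT and -0.25 ± 0.11 in KO (adjusted p = 0.30). Some of its exons overlap Prepl on the opposite strand.

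The other brush-border genes were not called. Slc7a13, the most abundant carrier, was at 1120 ± 265 (SD, n = 4) FPM in WT-SFD, 1070 ± 187 in WT-HFD, 1070 ± 27.6 in KO-SFD and 803 ± 92.2 in KO-HFD. Its log2 fold change was -0.06 ± 0.16 (SE) in WT and -0.42 ± 0.16 in KO (adjusted p = 0.21). Slc6a18 changed by -0.11 ± 0.11 and -0.29 ± 0.11, and Slc6a19 by 0.20 ± 0.20 and 0.12 ± 0.20. Of the 7 brush-border members, all tested, only Slc7a9 passed the edgeR test defined above in any diet comparison. In the averaged fit with the marker mean described below, Slc1a1 of this group was called lower and Slc7a9 was not called.

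The largest relative rises were in scarce carriers. Slc38a4 (SNAT4, a sodium-coupled carrier of neutral amino acids, known mainly from liver) was at 1.46, 0.88, 0.89 and 1.30 FPM in WT-SFD and at 4.44, 4.24, 3.64 and 3.34 FPM in WT-HFD. KO-SFD kidneys had 1.74, 1.19, 0.87 and 0.82 FPM and KO-HFD kidneys 3.80, 3.81, 3.80 and 3.87 FPM. The lowest HFD kidney thus held 3.34 FPM and the highest SFD kidney 1.74. The rise was 3.45 times in WT (log2 1.79 ± 0.24, adjusted p = 0.0008) and 3.29 times in KO (log2 1.72 ± 0.24, adjusted p = 0.00075), from 14 to 96 reads per library.

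Slc6a7, a proline carrier otherwise known from brain, was at 0.76, 0.31, 0.86 and 0.49 FPM in WT-SFD and 2.27, 2.35, 1.19 and 1.86 FPM in WT-HFD. In KO-SFD it was at 0.43, 0.86, 0.56 and 0.44 FPM and in KO-HFD at 2.50, 2.25, 4.88 and 3.77 FPM. All HFD kidneys lay above all SFD kidneys. It rose 3.08 times in WT (log2 1.62 ± 0.35, adjusted p = 0.036) and 5.77 times in KO (log2 2.53 ± 0.36, adjusted p = 0.00083), on 5 to 77 reads per library.

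Slc7a2 (CAT2, a carrier of arginine and lysine) was at 4.55, 2.07, 3.01 and 3.23 FPM in WT-SFD and 6.25, 4.64, 7.05 and 6.02 FPM in WT-HFD, and at 2.94, 3.13, 2.97 and 3.33 FPM in KO-SFD and 4.50, 5.15, 5.95 and 8.65 FPM in KO-HFD. The diets did not overlap, with 4.55 against 4.64 FPM as the nearest WT pair. The rise was 1.96 times in KO (log2 0.97 ± 0.23, adjusted p = 0.034) and 1.86 times in WT (log2 0.89 ± 0.23, adjusted p = 0.096), which was not called. Slc7a2 overlaps exons of the lincRNA Gm26584 on the opposite strand.

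Both neutral exchangers of the Slc1 family fell. Slc1a4 (ASCT1, for alanine, serine, cysteine and threonine) was at 46.8, 28.2, 44.7 and 58.1 FPM in WT-SFD and 18.0, 27.7, 37.3 and 29.3 FPM in WT-HFD, and at 45.5, 54.1, 60.8 and 37.0 FPM in KO-SFD and 28.2, 17.7, 22.8 and 25.9 FPM in KO-HFD. The diets overlapped in WT and not in KO. In KO it fell by 1.06 on the log2 scale (SE 0.23, adjusted p = 0.021), and in WT the difference of -0.67 ± 0.23 was not called (adjusted p = 0.34). Without KO-SFD-1318 and KO-SFD-1319 the difference in KO was -0.80 (adjusted p = 0.302), and the averaged one -0.74 (adjusted p = 0.04).

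Slc1a5 was at 78.3, 88.1, 79.9 and 87.7 FPM in WT-SFD and 71.2, 71.6, 63.9 and 63.4 FPM in WT-HFD, and at 97.9, 92.6, 106 and 116 FPM in KO-SFD and 78.1, 87.0, 81.3 and 63.5 FPM in KO-HFD. SFD lay above HFD in each genotype without overlap. In KO it fell by 0.41 on the log2 scale (SE 0.10, adjusted p = 0.04), and in WT the difference of -0.31 ± 0.10 was not called (adjusted p = 0.29). The adipocyte markers summed to 64.67 to 235.5 FPM in WT-SFD kidneys, 76.9 to 113.2 in WT-HFD, 68.35 to 643 in KO-SFD and 60.08 to 147.3 in KO-HFD. These sums overlapped between the diets in both genotypes, and the part of fat in the kidney values of Slc1a5 was not tested.

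Slc1a4 and Slc7a7 share a sequence feature. RefSeq start sites (GRCm38.p6) were given for 41 of the 59 members, and TGATGNAA, an amino acid response element through which genes answer amino acid shortage, was sought on both strands from 250 bases before to 50 after each start. It was found in 3 of the 41 (Slc1a4, Slc7a7 and Slc7a11, the last below the filter in the kidney), against 4.06% of 27025 windows of all genes. For members with several starts, a window free of exons and nearest the annotated gene start was preferred. For all genes the first start listed was taken, so the windows were not chosen alike. In Slc1a4 a match begins at -4 from the start, and in Slc7a7 matches begin at -141 and -1; those at -4 and -1 run past the start, and only their part before it is shown. The 250 bases before each start are printed because one of the genes fell on HFD and the other rose; capitals mark the motif on either strand.
Slc1a4, chr11:20332714-20332963, minus strand: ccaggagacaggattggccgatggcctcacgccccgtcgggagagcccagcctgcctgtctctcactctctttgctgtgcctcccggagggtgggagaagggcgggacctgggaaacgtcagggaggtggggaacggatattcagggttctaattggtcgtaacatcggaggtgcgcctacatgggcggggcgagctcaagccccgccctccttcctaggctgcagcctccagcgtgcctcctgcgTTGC
Slc7a7, chr14:54417945-54418194, minus strand: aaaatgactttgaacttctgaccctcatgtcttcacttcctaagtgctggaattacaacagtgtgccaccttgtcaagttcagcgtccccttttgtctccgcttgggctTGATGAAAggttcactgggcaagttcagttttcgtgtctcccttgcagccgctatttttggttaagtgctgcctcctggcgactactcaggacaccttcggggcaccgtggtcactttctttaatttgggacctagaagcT
AGGTCA, part of the sites of several nuclear receptors, was in 6 of the 41 windows and in 16% of all, and GTTAAT, part of the HNF1 site, in 4 and in 7.2%. A match is a description of the sequence only, and neither printed stretch holds AGGTCA or GTTAAT.

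The carriers of osmolytes did not pass the edgeR test defined above for either diet or genotype. In the fit with the proximal tubule marker mean described below, Slc6a12 was called higher with the genotypes averaged, and its direction turned. Slc6a6 was at 455 ± 25.5, 428 ± 34.6, 342 ± 79.3 and 405 ± 35.4 FPM (SD, n = 4) in WT-SFD, WT-HFD, KO-SFD and KO-HFD, and Slc6a13 at 222 ± 26.6, 198 ± 35.4, 230 ± 22.0 and 178 ± 14.6 FPM. Slc6a12 (BGT1, the betaine carrier of the medulla) was at 6.45, 7.98, 9.32 and 1.52 FPM in WT-SFD, 6.99, 4.64, 8.07 and 6.74 in WT-HFD, 14.2, 8.25, 6.85 and 7.59 in KO-SFD and 7.32, 8.61, 0.44 and 3.87 in KO-HFD. The diets overlapped in both genotypes, and WT-SFD-1695 and KO-HFD-1520 were lowest. None of the 4 tested genes of the tonicity response passed.

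Among members not called, log2 fold changes on HFD ran from -0.67 (Slc1a4) to 1.47 (Slc7a12) in WT and from -1.29 (Slc36a2) to 1.21 (Slc7a12) in KO. Slc7a12, a light subunit-like member, had from 3.54 to 31.3 FPM in WT-SFD and from 15.9 to 56.2 FPM in WT-HFD. Slc36a2 had 8.73 and 10.1 FPM in KO-SFD-1303 and KO-SFD-1451 and at most 3.91 FPM in the other 14 kidneys. In the same 2 kidneys the adipocyte markers summed to 339 and 643 FPM; their part in its values was not tested. The 3 tested carriers of the lysosome lay between -0.12 and 0.29, and the 3 of facilitated diffusion between -0.55 and 0.25, over both genotypes.

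Markers of several tubule segments moved with the diet in part. Of 9 for the proximal tubule, Slc5a2 (SGLT2, glucose uptake) rose in both genotypes, by 1.20 ± 0.21 in WT and 1.54 ± 0.21 in KO on the log2 scale, and Slc22a8 (OAT3, organic anions) rose in KO by 1.44 ± 0.18. The summed markers were 18850 to 24340 FPM in WT-SFD, 19020 to 25270 in WT-HFD, 16840 to 20370 in KO-SFD and 19660 to 32270 in KO-HFD, highest in KO-HFD-1520 and KO-HFD-1558. Of 4 markers of the last, S3 segment, Acsm3 fell in both genotypes, by 1.16 (SE 0.23) in WT and 1.03 (SE 0.23) in KO, and Slc22a19 fell by 0.68 (SE 0.16) with the genotypes averaged. Of 4 markers of the distal convoluted tubule, Slc12a3 (NCC, sodium chloride uptake) rose by 0.71 ± 0.14 and Pvalb by 1.57 ± 0.25 in KO. Of 4 for the thick ascending limb, Umod fell by 0.41 (SE 0.11) with the genotypes averaged, and the summed level was 7995 to 9060 FPM in KO-SFD and 3887 to 7001 in KO-HFD. In WT the same sum overlapped between the diets, at 6386 to 8282 FPM on SFD and 5163 to 7614 on HFD. The part of these shifts in the carrier values was not tested.

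The mean of the proximal tubule markers cannot be told apart from the diet in KO: it includes Slc5a2 and Slc22a8, and on the log2 scale it was 9.97 to 10.16 in KO-SFD and 10.37 to 10.98 in KO-HFD, against 10.16 to 10.53 in WT-SFD and 10.32 to 10.6 in WT-HFD. A fit with this mean therefore also removes part of the diet difference itself, and calls lost under it say nothing of their cause. In that fit Slc38a4 kept log2 fold changes of 1.8 in WT (adjusted p = 0.0022) and 1.74 in KO (adjusted p = 0.041). Slc7a8 then had 0.77 and 1.20, Slc6a7 1.41 and 1.90, and Slc1a4 -0.81 and -1.47, none of them called. Slc7a9 dropped to 0.31 in WT and 0.15 in KO (adjusted p = 0.67), and Slc3a2 to 0.45 and 0.18. Slc38a4 was the only member called in WT and in KO with that term, where 134 genes in WT and 123 in KO were called over all 15034. When both genotypes were averaged, 571 genes were called with the term; of the 9 members Slc38a4, Slc6a7, Slc7a8, Slc7a7 and Slc1a4 were among them and Slc7a9, Slc3a2, Slc7a2 and Slc1a5 were not. Slc7a12 (2.43), Slc6a12 (1.38, against -0.39 without the term) and Slc1a1 (-0.44) were called in addition.

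Genes that handle the same substrates were taken from lists. Of 21 other amino acid and peptide carriers 14 were tested. In WT none passed, where 0.911% of all genes were called, and in KO 1 rose and 1 fell, where 2.3% were. With both genotypes averaged 1 rose and 2 fell, where 4.48% of all genes were called. Slc16a10 (TAT1, aromatic amino acids at the basolateral membrane) was at 51.8, 57.6, 44.7 and 45.1 FPM in WT-SFD, 78.2, 49.4, 80.9 and 59.1 in WT-HFD, 37.9, 31.5, 32.7 and 37.7 in KO-SFD and 56.4, 70.0, 85.2 and 73.7 in KO-HFD. Only WT-HFD-1613, with 49.4 FPM, reached into the SFD range of its genotype, and the rise was called in KO (log2 1.03 ± 0.16, adjusted p = 0.0013) and not in WT (0.43 ± 0.15, adjusted p = 0.39). Slc25a29, a mitochondrial carrier of basic amino acids, fell by 0.72 in KO (SE 0.13, adjusted p = 0.0047).

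Of 32 genes of amino acid breakdown 28 were tested. In WT 2 rose, where 0.911% of all genes were called, and in KO 4 rose and 1 fell, where 2.3% were. With both genotypes averaged 4 rose and 1 fell, where 4.48% of all genes were called. Gldc, the glycine decarboxylase of the glycine cleavage system, was at 38.7, 58.4, 59.8 and 53.3 FPM in WT-SFD and 166, 159, 216 and 140 FPM in WT-HFD, and at 39.8, 21.8, 17.4 and 49.4 FPM in KO-SFD and 102, 196, 281 and 188 FPM in KO-HFD. Prodh2, which oxidises hydroxyproline, was at 49.9, 73.6, 54.8 and 57.2 FPM in WT-SFD and 179, 197, 205 and 187 FPM in WT-HFD, and at 46.3, 73.7, 54.9 and 55.4 FPM in KO-SFD and 126, 192, 290 and 221 FPM in KO-HFD. For both genes all HFD kidneys lay above all SFD kidneys. The log2 rises were 1.70 ± 0.31 (adjusted p = 0.01) and 2.58 ± 0.32 (adjusted p = 0.00039) for Gldc, and 1.70 ± 0.20 (adjusted p = 0.00052) and 1.85 ± 0.20 (adjusted p = 0.00016) for Prodh2, in WT and KO. Gatm, the first step of creatine synthesis, rose by 1.45 ± 0.26 in KO (adjusted p = 0.0046), and Bcat2, the branched-chain aminotransferase, fell there by 0.72 (SE 0.15, adjusted p = 0.017).

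Of 26 genes of the amino acid response 25 were tested. In WT 1 rose, where 0.911% of all genes were called, and in KO 2 rose and 5 fell, where 2.3% were. With both genotypes averaged 2 rose and 2 fell, where 4.48% of all genes were called. Psat1, of serine synthesis, was at 31.0, 21.4, 22.4 and 15.4 FPM in WT-SFD and 54.0, 49.4, 55.2 and 47.9 FPM in WT-HFD, and at 33.4, 27.6, 14.4 and 29.5 FPM in KO-SFD and 50.6, 65.8, 65.1 and 58.8 FPM in KO-HFD. No SFD kidney reached the HFD range, and the rise was 1.20 ± 0.22 on the log2 scale in each genotype (adjusted p = 0.009 in WT and 0.0053 in KO). Asns, asparagine synthetase, went the other way, at 5.10, 6.85, 4.35 and 3.36 FPM in WT-SFD, 3.10, 3.32, 3.75 and 4.35 in WT-HFD, 4.29, 22.6, 24.0 and 6.72 in KO-SFD and 4.34, 3.85, 2.15 and 2.11 in KO-HFD. It fell by 2.2 in KO (SE 0.45, adjusted p = 0.013), where KO-SFD-1318 and KO-SFD-1319 alone held more than 6.85 FPM, and Trib3, at 15.8 and 9.0 FPM in the same 2 kidneys and at most 3.5 in the others, fell by 2.67 (SE 0.54, adjusted p = 0.013).

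Those 2 kidneys also held the highest Slc3a2 and the highest Slc1a4 of KO-SFD. With both left out, 3 members were called in KO (Slc38a4, Slc6a7 and Slc7a8) in place of 8, while the calls over all genes tested dropped from 346 of 15034 to 99 of 15514. That fit has fewer KO-SFD mice, so a lost call there is not a lost change. Over this and the other alternatives, leaving out 1 library aside, log2 fold changes in KO kept their direction. They were 0.71 to 0.98 for Slc7a7, 0.61 to 0.97 for Slc7a2 and 0.15 to 0.87 for Slc7a9. For Slc1a5 they were -0.47 to -0.39, and for Slc1a4 -1.47 to -0.80.

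**Figure D4:**
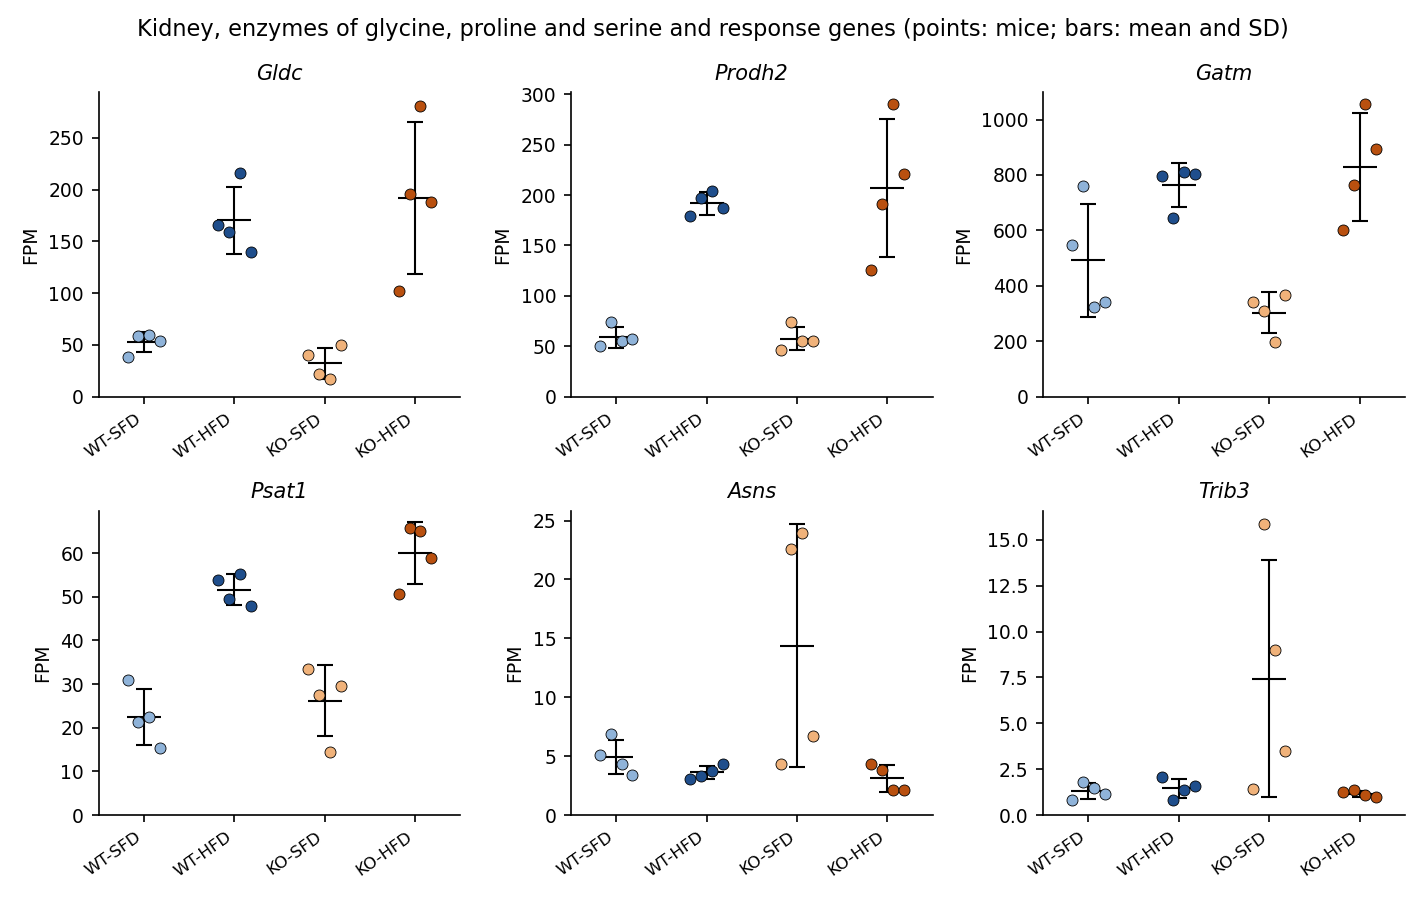
FPM of 6 genes of amino acid metabolism in each of the 16 kidneys (points), with the mean and SD of each group. Gldc, Prodh2 and Psat1 are higher on HFD without overlap in both genotypes, while Asns and Trib3 stand out in KO-SFD-1318 and KO-SFD-1319.

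No carrier was called between the genotypes in the kidney by edgeR or DESeq2. By edgeR, KO against WT had 2 genes called on SFD (0.0133%) and 1 on HFD (0.00665%), and the difference of the diet effect had none (0.0%). DESeq2 called 27, 1 and 0 genes in these comparisons, of 41128 listed and 23798 with a count. At an unadjusted p under 0.05 by edgeR the members numbered 5, 3 and 1, where 1258, 248 and 486 of all 15034 genes did. The member with the smallest p was Slc1a5 on SFD (log2 0.31 ± 0.10, adjusted p = 0.484), Slc7a13 on HFD (-0.42 ± 0.16, adjusted p = 1.0) and Slc7a8 for the difference of the diet effect (0.53 ± 0.24, adjusted p = 1.0). For Slc1a5, KO-SFD kidneys all exceeded WT-SFD kidneys, 92.6 FPM being the lowest against 88.1. Each KO against WT contrast shares its mice with the diet contrasts above. The difference of the diet effect, which compares the diet changes directly, was called for no gene. The larger counts of members called in KO than in WT are thus not shown to be a difference between the genotypes.

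In the aorta 0 of the 32 tested carriers were called by edgeR in any comparison. HFD against SFD gave no called gene in WT (0.0%) or KO (0.0%), KO against WT gave 12 genes on SFD and 12 on HFD (0.0811%), and the diet effect differed between the genotypes for none (0.0%). At an unadjusted p under 0.05 the members numbered 11 and 5 for the diet in WT and KO, 5 and 0 for the genotype on SFD and HFD, and 1 for the difference, where 2464, 1106, 908, 746 and 606 of all 14796 genes did. DESeq2 called 5 members for the diet in WT, Slc1a5, Slc7a10, Slc36a2 and Slc1a3 lower and Slc38a4 higher, and 0 members in the other comparisons. The 5 were among 649 genes called, of 41128 listed and 26846 with a count. Over all genes DESeq2 called 3 for the diet in KO, 23 and 40 between the genotypes on SFD and HFD, and 0 for the difference. HFD and SFD mice stood apart in the same direction in both genotypes for 130 genes (0.879%), 1 member among them, Slc1a5.

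Slc1a5 was at 302, 227 and 108 FPM in WT-SFD aortae and 75.3, 70.3, 92.0 and 102 FPM in WT-HFD, and at 208, 112 and 92.4 FPM in KO-SFD and 83.4, 69.4, 69.2 and 73.9 FPM in KO-HFD. The SFD values were spread widely, and the highest of them belonged to the fat-rich WT-SFD-1309, WT-SFD-1310 and KO-SFD-1319. Its log2 fold change on HFD was -1.32 ± 0.30 in WT (adjusted p = 0.078) and -0.89 ± 0.30 in KO (adjusted p = 0.57). With the mean of adipocyte and brown adipocyte markers in the fit (the adipocyte term) it was -0.64 and -0.27. The mean thus also holds the brown markers Ucp1, Cidea, Elovl3, Cox8b and Dio2, which the adipocyte sum above leaves out. On the log2 scale that mean was 7.21, 6.88 and 1.91 in WT-SFD, 6.43, 5.25 and 1.98 in KO-SFD and 1.29 to 3.45 on HFD. It thus ran in part with the diet, and a fit with it also removes part of the diet difference itself. The part of fat in the values of Slc1a5 and of the carriers below was not tested.

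Slc36a2 (PAT2, a proton-coupled carrier of proline and glycine that fat cells also make) followed the same mice, at 169, 96.9 and 2.89 FPM in WT-SFD, 104, 30.7 and 4.35 in KO-SFD and 2.19 to 10.7 FPM on HFD. Its log2 fold changes of -3.95 ± 1.00 in WT (adjusted p = 0.078) and -3.38 ± 1.01 in KO (adjusted p = 0.56) became -0.16 and -0.09 with the adipocyte term. Slc7a10 (Asc-1, also of fat cells) was at 17.3, 15.3 and 0.72 FPM in WT-SFD and 8.98, 2.09 and 0.45 in KO-SFD, and at 0.24 to 1.02 FPM on HFD. Its log2 fold changes of -3.97 ± 0.90 in WT (adjusted p = 0.078) and -3.04 ± 0.99 in KO (adjusted p = 0.56) became -0.89 and -0.41 with that term. Slc1a3 (GLAST, a glutamate carrier) was at 50.8, 37.3 and 9.67 FPM in WT-SFD, 5.10, 6.43, 5.00 and 3.84 in WT-HFD, 34.96, 14.5 and 6.16 in KO-SFD and 4.40, 7.98, 7.04 and 6.29 in KO-HFD. Its log2 fold changes were -2.67 ± 0.53 in WT (adjusted p = 0.078) and -1.50 ± 0.52 in KO (adjusted p = 0.59), and -1.23 and -0.21 with the term. All 4 carriers had their 4 highest values in the 4 aortae richest in adipocyte markers. Slc1a5, Slc36a2 and Slc1a3 were named in part for their diet values, which those SFD aortae help to set. Slc7a10 was named after its values were seen, so the shared pattern is a description only. With the 4 fat-rich aortae left out, 1 SFD mouse per genotype remains, and the spread comes from the other groups only. The diet differences in WT and KO, given as sizes only, were then -0.35 and -0.32 for Slc1a5. They were 1.01 and 0.013 for Slc36a2, and -0.91 and 0.071 for Slc1a3. Slc7a10 was not tested in that fit.

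**Figure D5:**
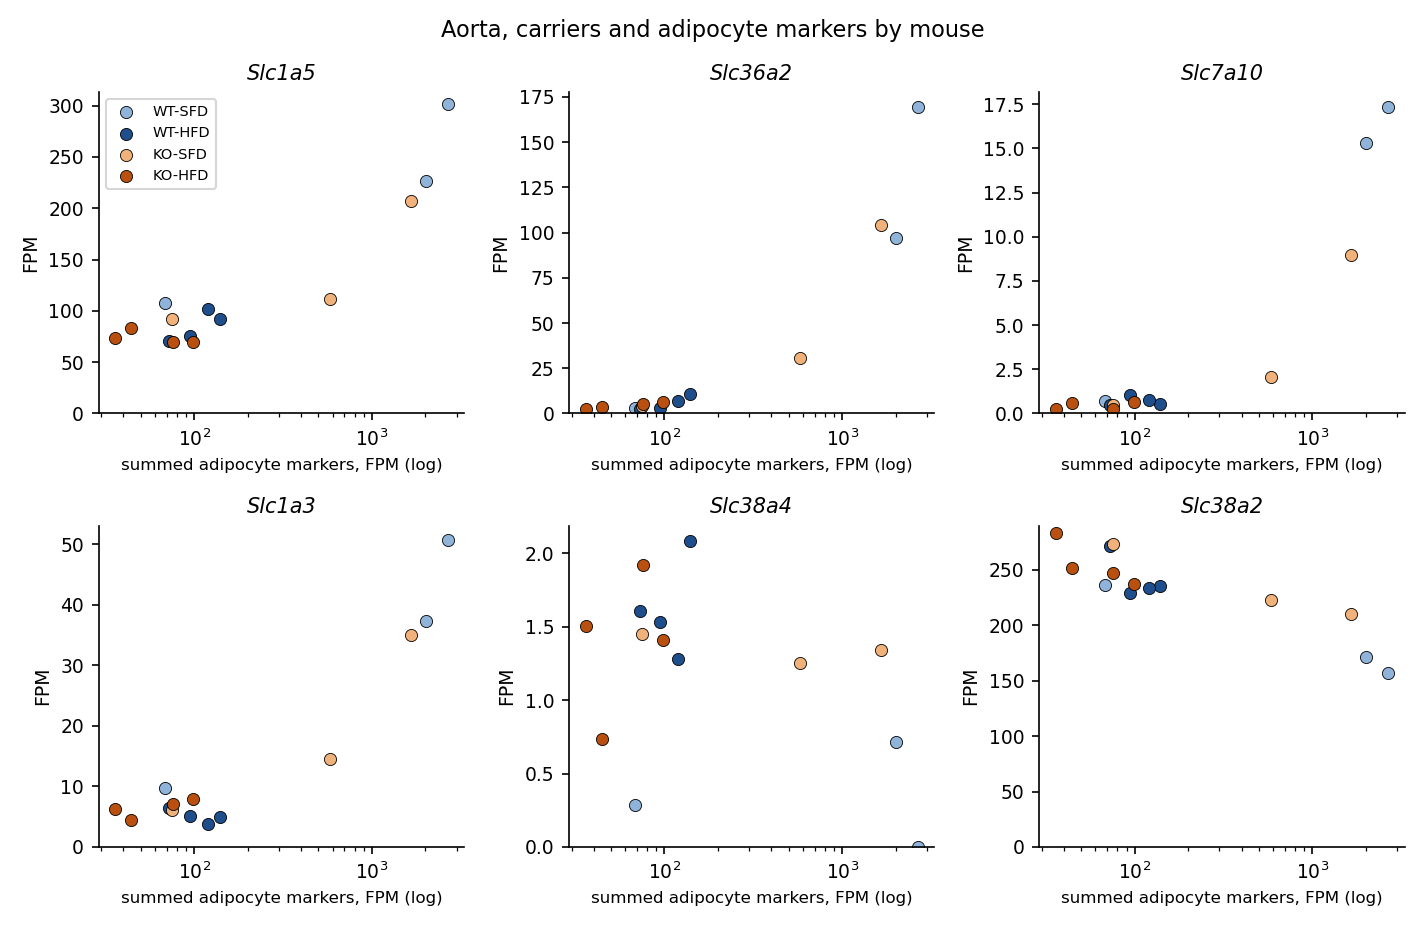
FPM of 6 carriers in each of the 14 aortae against the summed FPM of 7 adipocyte markers (log axis). Slc1a5, Slc36a2, Slc7a10 and Slc1a3 have their highest values in the SFD aortae with 581 FPM or more of these markers, although Slc1a5 in KO-SFD-1452 (112 FPM) is close to WT-SFD-1445 (108 FPM).

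Slc38a4 behaved otherwise. It was at 0, 0.72 and 0.29 FPM in WT-SFD and 1.53, 1.61, 2.09 and 1.28 FPM in WT-HFD, but at 1.34, 1.25 and 1.45 FPM in KO-SFD and 0.73, 1.41, 1.92 and 1.51 FPM in KO-HFD. The 3 WT-SFD aortae lay below all others, the nearest pair being 0.72 and 0.73 FPM, on 0 to 24 reads per library. The log2 difference was 2.13 ± 0.60 for the diet in WT (adjusted p = 0.087), 0.06 ± 0.50 in KO, and 1.87 ± 0.63 for KO against WT on SFD (adjusted p = 0.78), and it was 2.21 for the diet in WT with the adipocyte term. None of these was called, nor was the difference of the diet effect (-2.08 ± 0.78, adjusted p = 1.0).

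Several of the leading aortic carriers showed no such spread. Slc38a2 was at 189 ± 42.4 (SD, n = 3), 242 ± 19.6 (n = 4), 235 ± 33.3 (n = 3) and 255 ± 20.2 FPM (n = 4) in WT-SFD, WT-HFD, KO-SFD and KO-HFD. Slc43a3 had 67.6 ± 5.08, 67.0 ± 6.08, 68.5 ± 10.6 and 66.7 ± 6.36 FPM, and its log2 fold change on HFD was -0.01 ± 0.12 (SE) in WT and -0.04 ± 0.12 in KO. Slc3a2 changed by -0.14 ± 0.14 and -0.19 ± 0.14, and Slc6a6 by -0.02 ± 0.23 and -0.20 ± 0.23. Between the genotypes on HFD the smallest p was that of Slc38a11, a member without a settled substrate (log2 -0.29 ± 0.15, adjusted p = 1.0). Slc6a2, the noradrenaline carrier of sympathetic nerves, was at 42.99 FPM in WT-SFD-1309 and 14.7 in WT-HFD-1443 and at most 5.09 in the other 12, and the sympathetic and chromaffin markers summed to 104 and 32.5 FPM in the same 2 aortae against 13.4 at most elsewhere.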

How the data were processed

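The authors trimmed the reads with cutadapt, aligned them to mm10 with TopHat and counted them per gene with featureCounts, per the study's methods and the submitters' processing notes, and deposited raw counts, 1 column per mouse. Genes were annotated through BiomaRt, per the study's methods; the strand setting is not given in the sources used here. All columns were used (0 left out). No library was a copy of another: chi-square per gene was at least 8.82 between kidneys and 7.94 between aortae.

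Each tissue was fitted on its own with edgeR 4.0.16 (R 4.3.3): TMM factors, filterByExpr within groups (15034 kidney and 14796 aortic genes left), glmQLFit with a coefficient for each group, glmQLFTest, and Benjamini-Hochberg adjustment over all genes tested. The averaged diet contrast was made for the kidney only. SE is the log2 fold change divided by the square root of F. FPM is the count divided by library size times TMM factor, per 1000000, and FPKM divides FPM by the union exon length in kilobases of GENCODE vM21. The code was tested on simulated data.

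The members, gene lists and tests were chosen with earlier results of these data known. Members are named with values if called, if the diets did not overlap in both genotypes, if among the 10 highest per length, if of smallest p where none was called, or if fixed by name (partner subunits and osmolyte carriers); Slc7a12, Slc36a2 in kidney, Slc7a10, Slc6a2 and Slc1a1 were chosen after their values were seen. Of other lists up to 4 called genes with the smallest p were named. Alternatives were DESeq2 1.42.0, RLE factors, library totals, no filter, protein-coding genes only, an adjusted p under 0.001 and fits of only the groups compared. A marker mean as covariate and leaving out each library were also run. The marker mean was that of log2 CPM at prior count 2. It took proximal tubule markers in kidney, and adipocyte and brown adipocyte markers in aorta. Leaving out sets of libraries was added after seeing the data. Python 3.11.15 with matplotlib 3.10.9 drew the figures.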

Additional observations from a re-analysis of the deposited data

Results flagged for a closer look

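In 7 of 104 groups of 4 mice, over the named members and both tissues, 1 mouse stood apart from the other 3 by Dixon's test; chance alone flags about 1 in 20 groups. In the kidney these were Slc38a4 in KO-HFD-1558 (3.872 FPM, the others 3.797 to 3.807, a gap far smaller than the diet difference) and Slc6a19 in WT-HFD-1613 (287.8 FPM, the others 235.0 to 241.1). In the aorta Slc38a2 in WT-HFD-1443 was at 271.4 FPM (the others 229.2 to 235.3) and Slc6a9 in KO-HFD-1454 at 33.62 FPM (22.82 to 24.49). Carriers of the kidney brush border or osmolytes that were near 0 in the aorta gave the rest: Slc6a12 in WT-HFD-1443 (0.201 FPM, the others 0), Slc6a13 in WT-HFD-1447 (0.9383 FPM, the others 0 to 0.102) and Slc7a13 in KO-HFD-1505 (0.684 FPM, the others 0 to 0.0939).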

How the results depend on the processing

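No paired analysis was possible because the labels give the mice of the groups no shared replicate numbers. For HFD against SFD in WT kidneys 3 members were called, and DESeq2 called 5 (Slc7a2 and Slc7a7 in addition), an adjusted p under 0.001 left 1 and the proximal tubule covariate 1 (Slc38a4); leaving out 1 library gave 1 to 3, with 1 without WT-SFD-1695, WT-HFD-1535 or WT-HFD-1642 (92 to 136 over all genes, 137 with every library). In KO kidneys 8 were called, against 3 at an adjusted p under 0.001, 5 in a fit of only the 2 groups, 1 with the covariate, 3 without KO-SFD-1318 and KO-SFD-1319, and 4 to 8 without 1 library, with 4 without KO-HFD-1520 or KO-HFD-1558 and 5 without WT-HFD-1642 or any KO-SFD mouse (196 to 403 over all genes, 346 with every library). Averaged over the genotypes, 9 were called, 4 at an adjusted p under 0.001 and 8 to 12 without 1 library (488 to 721 over all genes, 674 with every library). For the diet in WT aortae 0 were called, but DESeq2 called 5, library totals without TMM 4 and no low count filter 4; without 1 library it was 0 to 9, with 9 without WT-SFD-1445 and 4 without KO-SFD-1319 or KO-SFD-1507. Over all genes these fits called 649 by DESeq2, 219 with library totals, 527 with no filter, 1801 without WT-SFD-1445, 497 without KO-SFD-1319 and 333 without KO-SFD-1507. Over all kidney genes DESeq2 called 263 in WT; an adjusted p under 0.001 left 23 in WT, 48 in KO and 148 averaged, the 2-group fit 228 in KO, and the covariate 134 in WT and 123 in KO. The other alternatives for the kidney diet comparisons gave 2 to 4 members in WT, 7 or 8 in KO and 8 to 11 averaged. Over all genes they called 111 to 141 in WT, 333 to 687 in KO and 405 to 1080 averaged. The 687 and 1080 were those of DESeq2, with 8 and 11 members. For KO against WT and the difference of the diet effect in either tissue, and for the diet in KO aortae, the member count was 0 in every alternative run. Slc38a4 was called in both genotypes of the kidney under every alternative that was run there, and Slc7a7, Slc7a8 and Slc6a7 kept their KO call without any 1 library. Calls that 1 library could end were Slc7a8 and Slc6a7 in WT (6 and 7 of 16 libraries, adjusted p up to 0.124 and 0.121), Slc1a4, Slc7a2, Slc7a9 and Slc1a5 in KO (5, 7, 8 and 11 libraries, up to 0.0683, 0.136, 0.117 and 0.136) and Slc3a2 averaged (10 libraries, up to 0.0846); the direction held each time. The libraries were, for Slc7a8, WT-SFD-1446, WT-SFD-1694, WT-SFD-1695, WT-HFD-1535, WT-HFD-1641 and WT-HFD-1642, for Slc6a7, WT-SFD-1309, WT-SFD-1446, WT-SFD-1695, WT-HFD-1535, WT-HFD-1613, WT-HFD-1642 and KO-HFD-1558, for Slc1a4, KO-SFD-1318, KO-SFD-1319, KO-HFD-1504, KO-HFD-1520 and KO-HFD-1558, and for Slc7a2, WT-HFD-1642, KO-HFD-1520, KO-HFD-1558 and each KO-SFD mouse. KO-SFD-1303, KO-SFD-1451, KO-HFD-1520, KO-HFD-1558, WT-SFD-1695, WT-HFD-1641 and WT-HFD-1642 were among those of Slc7a9, Slc1a5 and Slc3a2 alike. Slc7a9 also lost its call without KO-SFD-1318, Slc1a5 without WT-SFD-1694, WT-HFD-1613, KO-SFD-1319 or KO-HFD-1437, and Slc3a2 without WT-SFD-1309, WT-SFD-1694 or WT-HFD-1535. The log2 fold change of Slc36a2 in KO aortae was -3.38 with every library and 0.013 without the 4 fat-rich aortae. That fit leaves 1 SFD mouse per genotype and takes its spread from the other groups, so 0.013 is a size only. The WT value of Slc36a2 in that fit was 1.01. Library totals in place of TMM moved the median of all aortic genes by 0.112 and -0.107 for the diet in WT and KO and by 0.293 between the genotypes on SFD, and that of kidney genes by at most 0.0196 in size. The aortae had fewer counts and fewer SFD mice than the kidneys, and the median SE of the members for the diet in WT was 0.29 there against 0.19.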
